A study of Mus musculus with 194 samples.

Results

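Transposon insertions were counted at 7 mouse genes that encode subunits of the GABA-A receptor: Gabra2, Gabra4 and Gabra5 (alpha subunits), Gabrb1 and Gabrb2 (beta subunits), and Gabrg1 and Gabrg3 (gamma subunits). They were chosen by name, out of 21631 protein-coding gene loci counted in the same way, and a locus was the gene body with 10 kb on each side. The data are calling cards, in which a transposase places a transposon into nearby TTAA sequences of the genome and so leaves a permanent record in the cell. Mice received the transposase and the transposon by adeno-associated virus (AAV) on postnatal day 0 or 1. The insertions were read from RNA of the self-reporting transposon in cortex or, in the BrokenHeart group, from cortex DNA by inverse PCR.

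The 46 animals fell into 11 groups, with 1 table of insertions per animal, and 1 further table came from the N2a line, a mouse neuroblastoma cell line whose experiments were pooled. C57bl6J (2 animals) received viruses that do not need Cre. Syn1Cre (6 animals) and GFAPCre (6 animals) carried Cre lines named for Syn1, a neuronal gene, and for Gfap, an astrocyte gene whose promoter is also known to be active in neural progenitors. Syn1CreNeg (6 animals) and GFAPCreNeg (6 animals) had the names of the same lines with the ending Neg, which the labels do not spell out. Frontflip_GFAPCre and Frontflip_GFAPCreNeg (3 animals each) had a construct that the labels name and do not describe. Syn1Cre_SP1 animals carried the Syn1Cre line with a construct named for SP1, a transcription factor known to bind GC-rich promoter sequences, and were collected on postnatal day 28 (4 animals) or 10 (3 animals). Rbp4Cre_TRAP (4 animals) was read from RNA of whole forebrain after TRAP, a capture usually made on ribosome-bound RNA, and Rbp4Cre is a line used for cortical projection neurons. BrokenHeart had 3 animals. The labels give no age for the other groups and no name of the transposase.

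GABA-A receptors are chloride channels that open when the inhibitory transmitter GABA binds. Each is built from alpha and beta subunits, which form the GABA binding site, and usually a gamma or delta subunit, which affects where the receptor sits and whether benzodiazepines act on it. Their genes lie in clusters that arose by duplication, and neighbours on the chromosome can encode partners in 1 channel.

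In GRCm38, 4 of the 7 genes form a cluster on chromosome 5: Gabrg1 at chr5:70751047-70842617 (minus strand, gene ID 14405), Gabra2 at chr5:70958392-71095849 (minus, 14395), Gabra4 at chr5:71569734-71658308 (minus, 14397) and Gabrb1 at chr5:71657921-72149572 (plus, 14400). Gabrg3 at chr7:56716463-57387215 (minus, 14407) and Gabra5 at chr7:57407669-57591016 (minus, 110886) lie on chromosome 7. Gabrb2 at chr11:42419515-42632591 (plus, 14401) lies on chromosome 11. The bodies range from 88.6 kb (Gabra4) to 670.8 kb (Gabrg3). Gabra4 and Gabrb1 start head to head and share 20.39 kb of their loci, so 1159 brain RNA insertions counted for both, of 2538 at Gabra4 and 17540 at Gabrb1.

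The insertions can be placed on the sequence. Shown are the promoter windows of Gabra2, whose start had the largest difference in the SP1 animals, and of an annotated start of Gabrb2, which holds the single position most often hit at any of the 7 genes. Both run from 250 bases before to 50 bases after the annotated start in RefSeq's GRCm38.p6 table, 5′ to 3′ on the gene's strand, with TTAA and the GC box (GGGCGG, or CCGCCC on the other strand) in capitals.
Gabra2 promoter, chr5:71095800-71096099, minus strand: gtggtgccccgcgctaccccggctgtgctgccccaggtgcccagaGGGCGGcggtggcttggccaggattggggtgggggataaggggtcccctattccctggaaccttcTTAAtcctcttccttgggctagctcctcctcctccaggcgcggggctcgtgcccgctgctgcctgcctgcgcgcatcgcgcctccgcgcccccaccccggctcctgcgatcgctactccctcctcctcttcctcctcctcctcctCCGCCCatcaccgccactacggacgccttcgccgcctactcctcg
Gabrb2 promoter, chr11:42420951-42421250, plus strand: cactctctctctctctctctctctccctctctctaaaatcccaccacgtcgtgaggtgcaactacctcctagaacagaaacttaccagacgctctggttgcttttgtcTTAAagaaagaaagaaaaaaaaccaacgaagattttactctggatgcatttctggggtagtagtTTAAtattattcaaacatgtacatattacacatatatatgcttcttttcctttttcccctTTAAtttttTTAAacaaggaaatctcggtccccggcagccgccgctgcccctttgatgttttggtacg
In the Gabra2 window all 53 insertions lay on its only TTAA, 140 bases before the start. They came from 24 animals of 9 groups. The day 28 SP1 animals gave 18 of these insertions, the day 10 SP1 animals 5, GFAPCre 9, GFAPCreNeg 8 and Syn1Cre 6. This window holds 2 GC boxes. In the Gabrb2 window, which holds no GC box, 213 insertions lay on 4 TTAA sites. The site 9 bases before the start took 178 of them, in 37 animals, and the sites 18, 78 and 142 bases before it took 22, 8 and 5. Of the 213, the day 28 SP1 animals gave 24, the day 10 SP1 animals 12, GFAPCre 48, GFAPCreNeg 32 and Syn1Cre 39. In that order the groups held 1083099, 271946, 5201701, 2575805 and 5573110 insertions in all, so raw counts of groups are not levels. Whether GC boxes go with insertions was not tested. TTAA occurred in 52.39% and the GC box in 35.66% of the 32851 promoter windows of this length in the table. The promoter windows of Gabra4 (2 GC boxes), Gabra5 and Gabrg3 (1 GC box) hold no TTAA and took no insertion.

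The tables held between 2341 and 2186743 insertions. C57bl6J had 1545951 and 2186743, Syn1Cre 443158 to 1364948, Syn1CreNeg 97519 to 556145, GFAPCre 600443 to 1505413 and GFAPCreNeg 208057 to 597230. The SP1 animals had 108965 to 577609 at day 28 and 86842 to 95331 at day 10. Frontflip_GFAPCre had 160631 to 205559, Rbp4Cre_TRAP 24408 to 57014, BrokenHeart 42511 to 98197 and the N2a line 806653. The 3 Frontflip_GFAPCreNeg animals had 17607 insertions together and entered no comparison. Levels below are insertions in the locus per 1000000 insertions (IPM) in the animal, and values are mean ± SD over animals.

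Gabrb1 held the most insertions of the 7 genes and Gabrg1 the fewest, in each of the 10 animal groups compared. In Syn1Cre the levels were 723.5 ± 123.5 at Gabrb1, 342.8 ± 21.87 at Gabrg3, 279.4 ± 23.86 at Gabrb2, 222.3 ± 33.93 at Gabra2, 116 ± 11.89 at Gabra4, 89.33 ± 9.398 at Gabra5 and 44.73 ± 11.12 at Gabrg1 (SD, n = 6). Per 100 kb of locus, which removes most of the effect of gene length, Gabrb1 (141.4 IPM per 100 kb) and Gabra2 (141.2) were level, followed by Gabrb2 (119.9), Gabra4 (106.9), Gabrg3 (49.63), Gabra5 (43.93) and Gabrg1 (40.09). On this scale Gabrb1 lay above 94.69% and Gabrg1 above 58.41% of all gene loci in Syn1Cre. The median over the 7 genes was 106.9 IPM per 100 kb against 31.62 over all loci in Syn1Cre, 113.7 against 29.59 in GFAPCre and 97.64 against 29.61 in C57bl6J. In the N2a line it was 3.723 against 32.56, below the median of all loci.

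**Figure D1:**
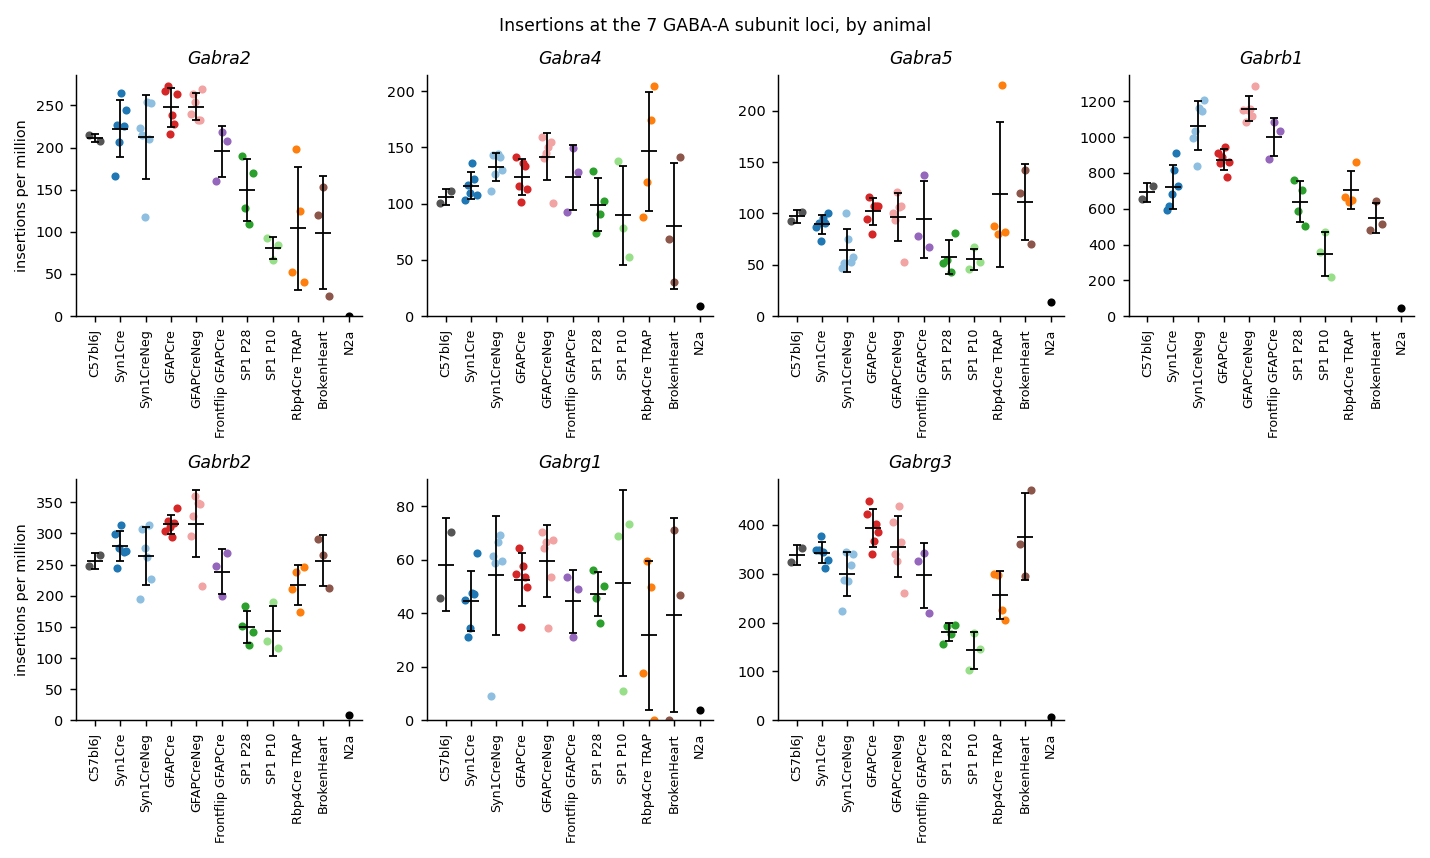
Level (IPM) in each of the 7 gene loci (vertical axes) by animal, 1 panel per gene, with groups along the horizontal axis. Points are animals, bars are mean ± SD, and the single black point is the pooled N2a table. Gabrb1 is highest of the 7 genes in the RNA groups drawn, the SP1 groups lie low at Gabrb2 and Gabrg3, and the N2a point is near 0 in every panel. Frontflip_GFAPCreNeg is not drawn.

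The N2a line had few insertions at each of the 7 genes. Gabra2 had 0 of 806653 insertions, which allows a level of up to 3.719 IPM (3 counts). Gabrg1 had 3 insertions (3.719 IPM, 95% exact Poisson interval 0.767 to 10.87), Gabrg3 had 6 (7.438, 2.73 to 16.19), and Gabra4 and Gabrb2 had 7 each (8.678, 3.489 to 17.88). Gabra5 had 11 (13.64, 6.807 to 24.4) and Gabrb1 had 36 (44.63, 31.26 to 61.79). These intervals cover counting error only, and with 1 pooled table there was no test of the line against the animals.

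Among the animal groups the order differed by gene. Gabra2 ran from 248.4 ± 15.88 in GFAPCreNeg (SD, n = 6) down to 80.96 ± 12.9 in the day 10 SP1 animals (SD, n = 3). Gabrb1 ran from 1159 ± 69.27 in GFAPCreNeg (SD, n = 6) to 348.4 ± 124 in the day 10 SP1 animals (SD, n = 3), leaving aside Frontflip_GFAPCreNeg, whose 29 insertions there gave 1606 ± 331.6 (SD, n = 3). With that group left aside, Gabrb2 was highest in GFAPCreNeg (315.8) and GFAPCre (314.3), Gabrg3 was highest in GFAPCre (393.8) and BrokenHeart (375.4), and both were lowest in the SP1 groups. In these orders nearly all neighbouring groups overlapped. The neighbours that did not overlap were BrokenHeart and day 10 SP1 at Gabrb1, Rbp4Cre_TRAP and day 28 SP1 at Gabrg3, and day 10 SP1 and Frontflip_GFAPCreNeg at Gabra5, where the latter had no insertion.

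The first comparison set the 2 Cre lines side by side. None of the 7 genes changed between Syn1Cre and GFAPCre at an adjusted p under 0.05 (edgeR's quasi-likelihood test with Benjamini-Hochberg adjustment over all loci), where 2.41% of 11553 loci tested were called. All 7 were lower in Syn1Cre, by a median of -0.19 on the log2 scale (range -0.28 to -0.09) against 0.05 over all loci, and 2 of them had an unadjusted p under 0.05. TMM factors and DESeq2 also called 0. Gabrb1, a beta subunit gene, had the lowest adjusted p of the 7. Its lowest, median and highest levels were 591.2, 703.9 and 913.9 in Syn1Cre and 777.1, 876.2 and 943.6 in GFAPCre. The groups overlapped, with the 4 lowest animals all from Syn1Cre, and the edgeR adjusted p was 0.1415. Without Syn1Cre animal 5, the highest of its group, the difference was -0.35 and passed.

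The library names of the Syn1Cre animals come in 2 forms. Those of animals 1 to 3 are written like those of the GFAPCre animals and those of animals 4 to 6 in another way. The labels do not say what the forms mean. The Syn1Cre animals 1 to 3 had 591.2, 613.1 and 680.9 IPM at Gabrb1 and animals 4 to 6 had 815.4, 913.9 and 726.8, so the 2 name forms did not overlap. With Syn1Cre animals 1 to 3 alone, 14.7% of all loci were called. Among the 7 genes 2 were called lower, Gabrb1 by -0.48 ± 0.10 (SE, adjusted p = 0.001056) and Gabrg1, a gamma subunit gene, by -0.57 ± 0.18 (SE, adjusted p = 0.03371). The other 5 differed by -0.32 to -0.15 and were not called.

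Gabrb1 was lower in animals with the Cre line than in those named Neg, for both lines. In Syn1Cre its level was 723.5 ± 123.5 (SD, n = 6) against 1065 ± 136.9 in Syn1CreNeg (SD, n = 6; lowest 839.9, median 1091, highest 1209). The groups overlapped in 1 Syn1Cre animal above the lowest Syn1CreNeg animal. The difference was -0.58 ± 0.12 on the log2 scale (SE, edgeR adjusted p = 0.0003101). In GFAPCre it was 873.5 ± 57.71 (SD, n = 6) against 1159 ± 69.27 in GFAPCreNeg (SD, n = 6; lowest 1085, median 1151, highest 1288). These groups did not overlap, and the difference was -0.40 ± 0.09 (SE, edgeR adjusted p = 0.002746).

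Of the 7 genes, 2 changed between Syn1Cre and Syn1CreNeg, 1 in each direction. Calls were common in this comparison, with 31.2% of 8613 loci called, 14.6% higher and 16.6% lower in Syn1Cre, so 2 of 7 is near the background. The gene that rose was Gabra5, an alpha subunit gene linked with extrasynaptic receptors in hippocampus. It had 89.33 ± 9.398 (lowest 72.79, median 90.45, highest 99.93; SD, n = 6) against 64.02 ± 20.62 (lowest 46.52, median 55.01, highest 100.8; SD, n = 6). Here 4 of 6 Syn1CreNeg animals lay below every Syn1Cre animal, and the group rested on 113 insertions. The difference was 0.49 ± 0.16 (SE, edgeR adjusted p = 0.02143). It was not called with DESeq2 (0.48), from insertions of at least 2 reads (0.47), or without Syn1CreNeg animal 5 (0.42) or 6 (0.44). The other 5 genes were not called, with Gabra2 at 0.01, Gabrb2 at 0.08, Gabrg3 at 0.17, Gabra4 at -0.22 and Gabrg1 at -0.40.

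Only Gabrb1 was called between GFAPCre and GFAPCreNeg, where 8.32% of 9203 loci were called and 6.35% were lower in GFAPCre. The other 6 ranged from -0.23 to 0.14. Whether the Cre effect differed between the lines was tested as an interaction: 0 of 7 genes and 0.853% of 10550 loci were called by edgeR, and 0 of 7 by DESeq2. For Gabrb1 the interaction was -0.18 ± 0.14 (SE, edgeR adjusted p = 0.6217), and for Gabra5, the only gene with an unadjusted p under 0.05, it was 0.45 ± 0.21 (SE, edgeR adjusted p = 0.3365).

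The Gabrb1 difference was present within each name form of the Syn1 line. It was -0.60 ± 0.13 within animals 1 to 3 (SE, edgeR adjusted p = 0.0006826), -0.52 ± 0.13 within animals 4 to 6 (SE, edgeR adjusted p = 0.007038) and -0.56 ± 0.09 with the name form as a block (SE, edgeR adjusted p = 1.365e-05). Gabra5 was 0.29 ± 0.32 within animals 1 to 3, not called, and 0.62 ± 0.18 within animals 4 to 6 (SE, edgeR adjusted p = 0.02009). For the GFAP line, 3 sequencing pools held animals of both groups, 7 tables in all. With the pool as a block these gave -0.47 ± 0.15 at Gabrb1, a difference of similar size that was not called (SE, edgeR adjusted p = 0.1291). Except for the SP1 ages, the other pairwise comparisons had no library that held both groups. In those, library and group cannot be told apart. Across the lines, libraries of GFAPCre animals 1 to 3 also held Syn1CreNeg animals 1 to 3, and all of these enter the interaction.

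Marker genes moved with the same contrasts. Of 10 astrocyte marker loci, 7 of 8 tested fell in Syn1Cre against Syn1CreNeg, with summed levels of 639 to 2026 against 2122 to 2735 IPM, and 2 of 9 fell in GFAPCre against GFAPCreNeg (822.4 to 1694 against 1465 to 3066). Of 12 neuron marker loci, 7 of 10 tested rose in Syn1Cre (3673 to 4346 against 2535 to 3519) and 2 of 8 rose in GFAPCre (3341 to 4151 against 2307 to 3437). Between Syn1Cre and GFAPCre, 4 of 11 neuron markers were higher in Syn1Cre, among them Gad1 (1.85) and Gad2 (2.00), which make GABA, and 0 of 9 astrocyte markers were called. Over all loci, 14.6% were higher and 16.6% lower in Syn1Cre against Syn1CreNeg. In GFAPCre against GFAPCreNeg 182 of 9203 loci were higher and 584 lower. Between Syn1Cre and GFAPCre 2.41% of all loci were called. No marker of either list was at 0 in these groups. The part of cell composition in the Gabrb1 and Gabra5 results was not tested, and in bulk tissue fewer cells of a type and fewer insertions per cell cannot be told apart.

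**Figure D2:**
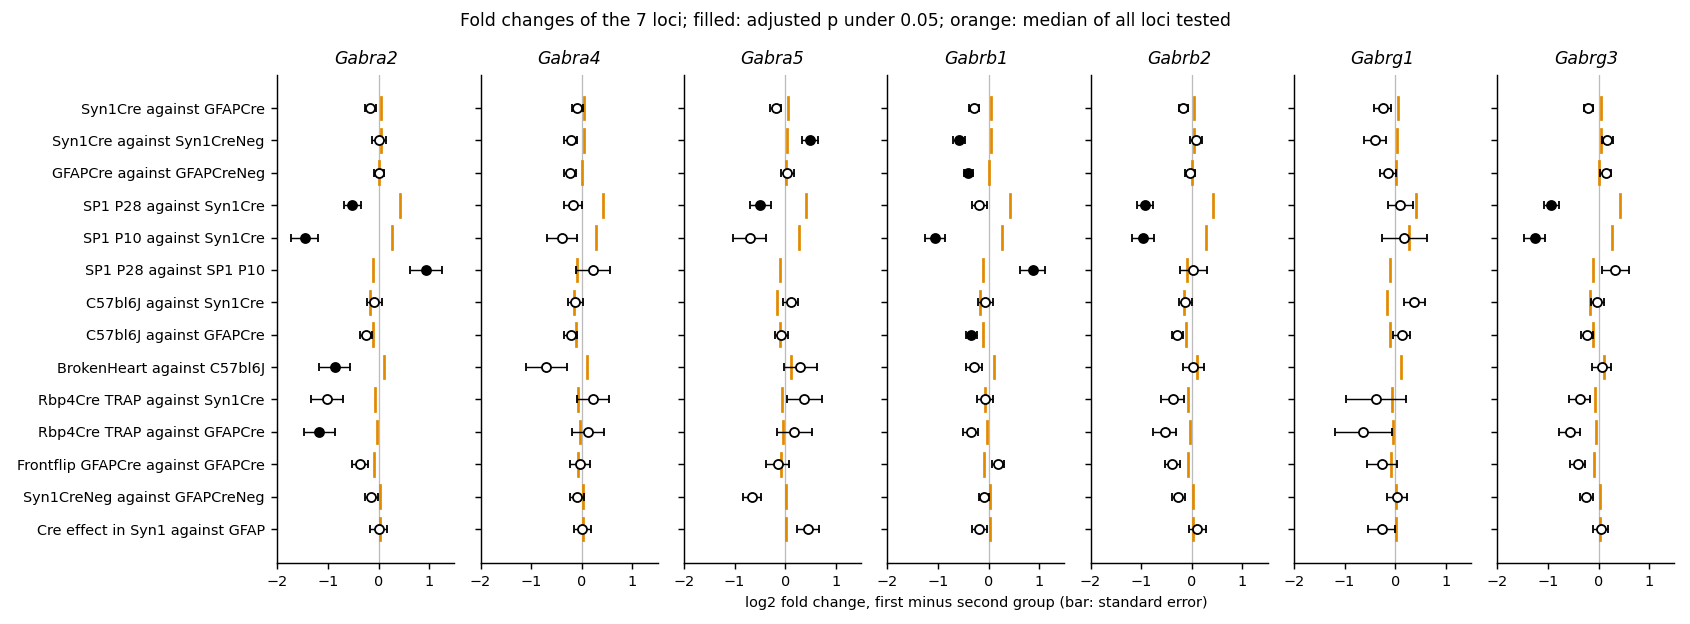
Log2 fold change of each of the 7 gene loci (1 panel per gene, horizontal axes) in the comparisons listed at the left, first group over second. Bars are SE, filled points have an adjusted p under 0.05 by edgeR, and the orange line is the median of all loci tested. Gabrb1 lies at -0.58 and -0.40 in the comparisons of Cre with Neg, and the 7 genes lie to the left of the orange line in both comparisons of SP1 with Syn1Cre.

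Part of the Gabrb1 difference between the Cre and Neg groups lay in 1 dense stretch of the gene body. Mean levels outside that stretch were also lower in the Cre groups of both lines. The 10 kb bin chr5:71731047-71741046, which lies 31.11 to 41.11 kb after the second annotated start, held 19.76% of Gabrb1's insertions in Syn1CreNeg (396 of 2004) and 7.146% in Syn1Cre (287 of 4016). Its level was 57.57 ± 42.67 in Syn1Cre (lowest 20.16, median 44.75, highest 139.9; SD, n = 6) and 194.8 ± 77.84 in Syn1CreNeg (lowest 50.4, median 211.3, highest 268.1; SD, n = 6). The groups overlapped at the ends of their ranges. In GFAPCre it was 90.55 ± 32.45 (lowest 53.65, highest 136.6; SD, n = 6) and in GFAPCreNeg 195.2 ± 49.05 (lowest 155.7, highest 283.6; SD, n = 6), with no overlap. The bin was chosen as the densest after the counts were seen and was given no test of its own.

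**Figure D3:**
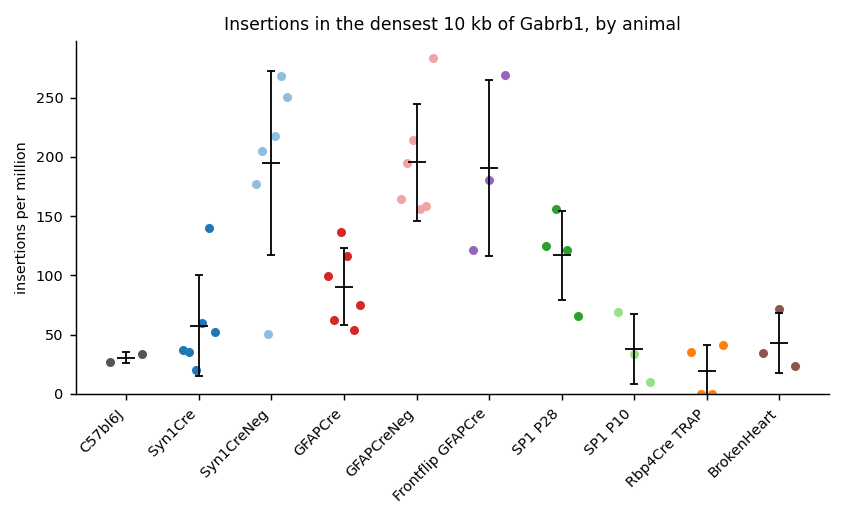
Level (IPM) in the densest 10 kb of Gabrb1 (vertical axis) by animal and group, with points for animals and bars for mean ± SD. GFAPCre animals lie between 53.65 and 136.6 and GFAPCreNeg animals between 155.7 and 283.6. Frontflip_GFAPCreNeg and N2a are not drawn.

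Tiled windows of 50 kb gave the same stretch. In the window chr5:71700001-71750000 the level fell by 1.47 ± 0.24 on the log2 scale in Syn1Cre against Syn1CreNeg (126.4 ± 66.89 against 332.2 ± 85.86 IPM; SD, n = 6 each; edgeR adjusted p = 3.31e-05). In GFAPCre against GFAPCreNeg it fell by 0.90 ± 0.16 (186.5 ± 51.3 against 350.5 ± 71.77; edgeR adjusted p = 0.0008705). The next window, chr5:71750001-71800000, also fell in both, by 0.87 ± 0.16 (edgeR adjusted p = 0.0001524) and 0.58 ± 0.14 (edgeR adjusted p = 0.008481). Outside both windows the Gabrb1 locus held 532.3 ± 63.35 in Syn1Cre, 620.1 ± 50.73 in Syn1CreNeg, 611.8 ± 29.52 in GFAPCre and, with n = 6 each, 694.2 ± 33.87 (SD) in GFAPCreNeg. The dense bin held 19.01 ± 22.08 in Rbp4Cre_TRAP (SD, n = 4; 3 insertions), 30.5 ± 4.718 in C57bl6J (SD, n = 2) and 190.5 ± 74.29 in Frontflip_GFAPCre (SD, n = 3). It held no insertion in the N2a line.

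**Figure D4:**
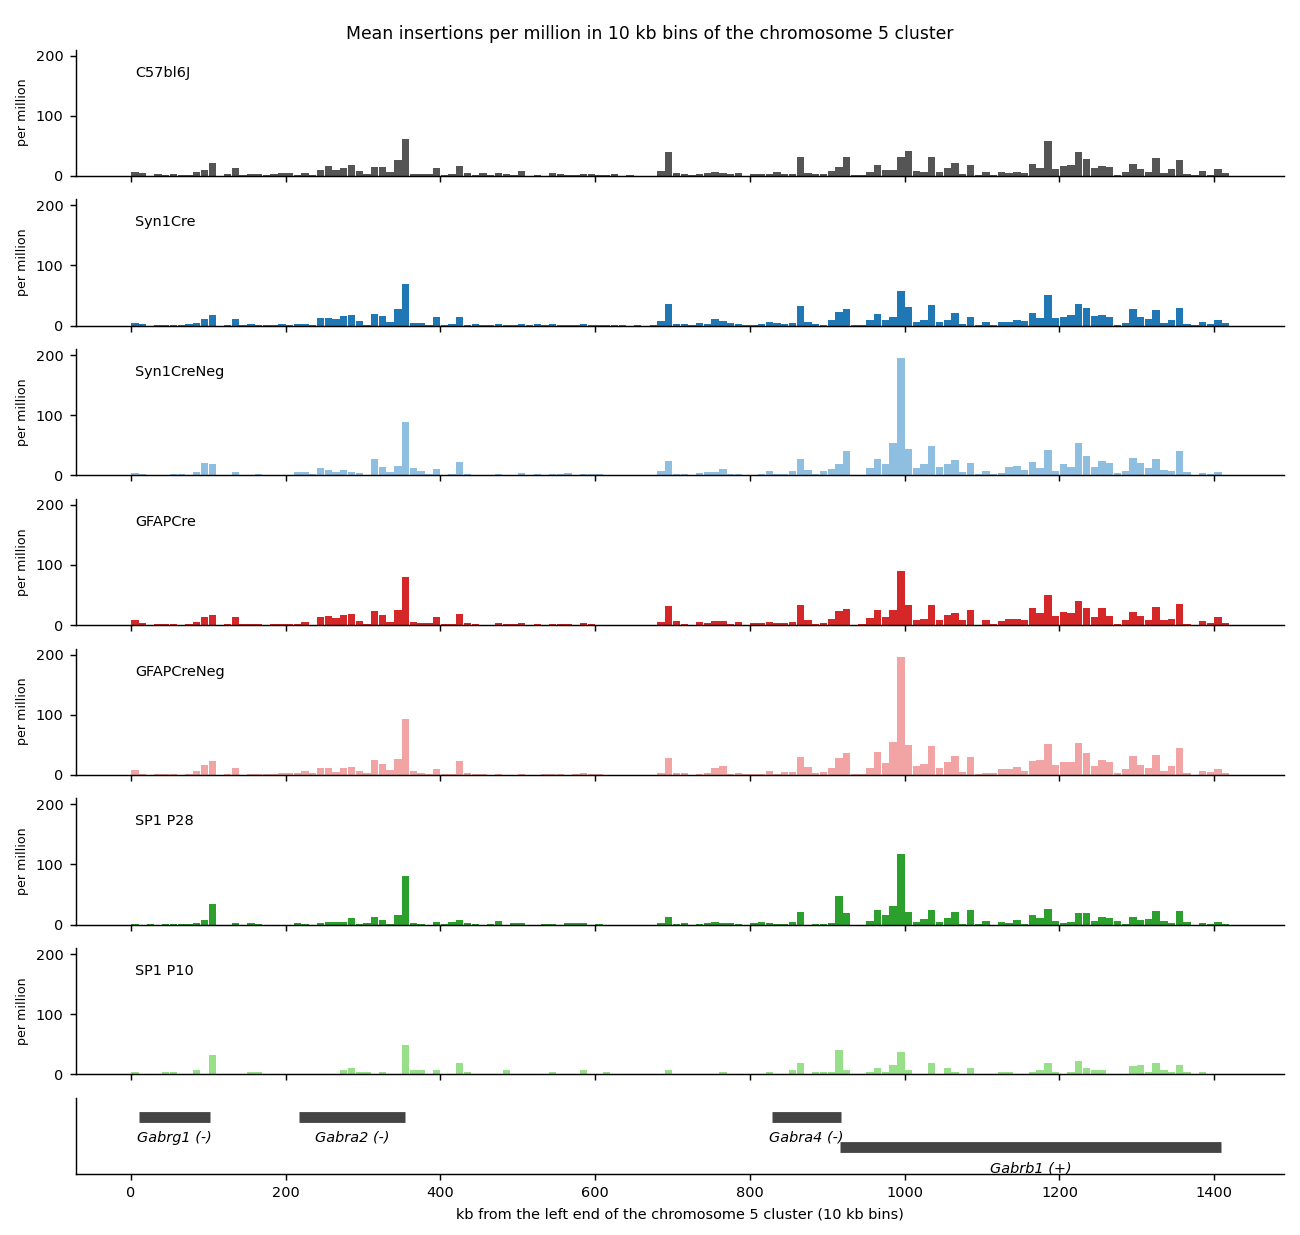
Mean level (IPM) in 10 kb bins along the chromosome 5 cluster (horizontal axis in kb from its left end) for 7 groups, with the bodies of Gabrg1, Gabra2, Gabra4 and Gabrb1 as bars at the bottom. The tallest bin in Syn1CreNeg (194.8) and GFAPCreNeg (195.2) lies inside Gabrb1, where Syn1Cre averaged 57.57 and GFAPCre 90.55.

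Across the 3 gene clusters the windows called lower lay in Gabrb1. The chromosome 5 cluster (1419 kb) held 1230 ± 164 IPM in Syn1Cre and 1559 ± 203.6 in Syn1CreNeg, and 1426 ± 57.66 in GFAPCre against 1711 ± 61.34 in GFAPCreNeg (SD, n = 6 each). The chromosome 7 cluster (1132 kb) held 568.8 ± 33.36 and 486.4 ± 91.76, and 642.9 ± 66.09 and 602.1 ± 84.5, in the same order. The chromosome 11 cluster (742.4 kb) held 833.8 ± 50.92 and 653.7 ± 117.2, and 866.7 ± 66.61 and 818 ± 109.6. Of 44 windows tested between Syn1Cre and Syn1CreNeg, 8 were called, against 33.4% of windows genome-wide. The 3 lower ones lay in Gabrb1, and 5 were higher. Of 56 windows tested between GFAPCre and GFAPCreNeg, the 2 called (6.51% genome-wide) both lay in Gabrb1. Between Syn1Cre and GFAPCre, 0 of 57 were called (3.28% genome-wide).

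The SP1 animals were set against Syn1Cre, which has the same Cre line and no SP1 in its name. Syn1Cre enters both of these comparisons and several others, so they share its animals. At day 28, 4 of the 7 genes were lower and none was higher, where 10.2% of 12053 loci were lower and 51.9% were called in all. At day 10, 4 were lower and none higher, where 8.94% of 12787 loci were lower and 37.5% were called in all. All 7 genes lay below the median of all loci at both ages, which was 0.42 at day 28 and 0.27 at day 10. Ages of the Syn1Cre animals are not in the labels, so age and the SP1 construct cannot be told apart here.

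The beta subunit gene Gabrb2 and the gamma subunit gene Gabrg3 were lower at both ages with no overlap. Gabrb2, a partner in many synaptic receptors, had 150.9, 183.5, 121.5 and 142.0 IPM in the day 28 animals and 126.7, 189.4 and 115.4 in the day 10 animals, against 244.5, 274.5 and 312.8 (lowest, median, highest) in Syn1Cre. Every SP1 animal lay below every Syn1Cre animal. The differences were -0.93 ± 0.16 at day 28 (SE, edgeR adjusted p = 1.184e-05) and -0.96 ± 0.22 at day 10 (SE, edgeR adjusted p = 0.0006312).

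Gabrg3 had 155.2, 192.7, 176.2 and 195.6 at day 28 and 103.6, 178.2 and 146.9 at day 10, against 311.4, 346.6 and 376.3 in Syn1Cre. Again no SP1 animal reached the lowest Syn1Cre animal. The differences were -0.93 ± 0.15 (SE, edgeR adjusted p = 4.763e-06) and -1.26 ± 0.21 (SE, edgeR adjusted p = 1.1e-05).

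Gabra2, an alpha subunit gene known for its part in anxiety-related benzodiazepine action, had 189.7, 128.5, 109.3 and 169.7 at day 28 and 92.12, 66.84 and 83.92 at day 10, against 166.1, 226.1 and 264.5 in Syn1Cre. The day 10 animals lay below all others, and 2 of the day 28 animals lay within the Syn1Cre range. The difference was -0.52 ± 0.17 at day 28 (SE, edgeR adjusted p = 0.01367), which was not called without day 28 animal 3 (-0.41), and -1.46 ± 0.27 at day 10 (SE, edgeR adjusted p = 5.916e-05). The day 10 level rested on 22 insertions.

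Gabrb1 was lower at day 10 and not called at day 28. It had 763.2, 587.3, 704.7 and 503.8 at day 28, 2 of them below the Syn1Cre range of 591.2 to 913.9, and 357.0, 467.8 and 220.3 at day 10, all below it. The differences were -0.18 ± 0.15 (SE, edgeR adjusted p = 0.3213) and -1.06 ± 0.20 (SE, edgeR adjusted p = 6.173e-05).

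Gabra5 was called at day 28 alone, and its call was fragile. It had 51.74, 55.06, 42.52 and 81.37 at day 28 and 46.06, 66.84 and 52.45 at day 10, against 72.79, 90.45 and 99.93 in Syn1Cre. The day 28 animals overlapped Syn1Cre in 1 animal and the day 10 animals did not. The differences were -0.49 ± 0.20 (SE, edgeR adjusted p = 0.04407) and -0.70 ± 0.33 (SE, edgeR adjusted p = 0.09305). At day 28 it was not called without Syn1Cre animal 2 (-0.49), 4 (-0.47) or 6 (-0.45), or day 28 animal 1 (-0.41), 2 (-0.46) or 3 (-0.39).

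Gabra4 and Gabrg1 were not called at either age. Gabra4 had 129.4, 73.42, 91.12 and 102.1 at day 28 and 138.2, 77.97 and 52.45 at day 10. Of these, 129.4 lay within its Syn1Cre range of 103.6 to 136.3, 138.2 lay above it and the others lay below it. Its differences were -0.18 ± 0.18 and -0.39 ± 0.29 (SE). Gabrg1, a gamma subunit gene also known from glia, had 56.06, 45.89, 36.45 and 50.21 at day 28 and 69.09, 11.14 and 73.43 at day 10, against 31.01, 46.28 and 62.46 in Syn1Cre. The day 28 animals lay within the Syn1Cre range and the day 10 animals outside it on both sides, and the 11.14 was 1 insertion. Its differences of 0.10 ± 0.25 and 0.18 ± 0.45 (SE) turned to -0.37 and -0.36 with TMM factors and to -0.41 and -0.39 with DESeq2.

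These counts depend on what is taken as unchanged. With the IPM levels used here, 5023 loci were higher and 1227 lower at day 28, and 3648 higher and 1143 lower at day 10. TMM factors moved the median of all loci by -0.47 and -0.53, gave 3159 higher and 3045 lower at day 28 and 2565 higher and 2640 lower at day 10, and called 6 of the 7 genes lower, all but Gabrg1, at both ages. DESeq2 moved it by -0.51 and -0.58, gave 2815 and 2766 and then 2465 and 2164, and called the same 6. Under TMM, Gabra4 was -0.65 at day 28 and -0.93 at day 10.

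The 2 ages were also compared directly. By the labels, 3 of the 4 day 28 tables share a library with a day 10 table, and day 28 animal 1 shares none. Of 5 genes tested, 2 were higher at day 28, where 4.94% of 3460 loci were higher and 11.1% were called in all. Gabra2 differed by 0.94 ± 0.31 (SE, edgeR adjusted p = 0.04871) and Gabrb1 by 0.87 ± 0.24 (SE, edgeR adjusted p = 0.02229), and for both every day 28 animal lay above every day 10 animal. Gabra2 passed the low-count filter through the day 28 animals, where it is high, and without the filter it was not called (0.94, edgeR adjusted p = 0.1271), while Gabrb1 was (0.87). Gabra4 (0.22), Gabrb2 (0.03) and Gabrg3 (0.33) were not called, and Gabra5 and Gabrg1 had too few insertions to be tested. Gabra2 was not called without day 10 animal 1 (1.04), 2 (0.82) or 3 (0.97) or day 28 animal 1 (0.83), nor Gabrb1 without day 10 animal 1 (0.89) or 3 (0.62) or day 28 animal 1 (0.77). Over all loci, the called split went from 171 higher and 212 lower to 258 and 129 with TMM factors and 119 and 48 with DESeq2.

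The lower levels in the SP1 animals were in the gene bodies, while insertions near the starts were higher. Within 1 kb of the annotated starts of any gene lay 7.161 ± 0.6508% of insertions in Syn1Cre (SD, n = 6), 19.79 ± 2.81% at day 28 (SD, n = 4) and 22.66 ± 1.107% at day 10 (SD, n = 3). The 7 genes were tested in the same windows at their own starts. The low-count filter used elsewhere keeps a window that reaches 15.03 IPM in 4 animals at day 28, or 13.28 IPM in 3 at day 10. Syn1Cre animals alone admitted none of the 7 at day 28, and Gabra2, Gabra4, Gabrb2 and Gabrg1 passed through the SP1 animals, where they are high. The filtered shares rest on windows kept in this way: 85.3% of 2492 windows higher and 86.1% called at day 28 (5 of 5 genes tested higher), and 72.6% of 2535 higher and 73.5% called at day 10 (2 of 5). They are given as a description, and the values that follow are from the fit without the filter, over every window with an insertion in either group. There 35.5% of 12760 windows were higher and 35.9% called at day 28, with a median of 1.02, and 22.5% of 12493 were higher and 22.6% called at day 10, with a median of 0.44. Of the 7 genes, 5 were higher at day 28 and 3 at day 10, and none was called lower. The windows at the start of Gabra4 (71658308) and at the first start of Gabrb1 (71657921) overlap. Insertions in the overlap counted for both genes, such as the 81 brain RNA insertions at 71657328. The start results of Gabra4 and Gabrb1 are thus not independent.

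At the start of Gabra2 the day 28 animals had 33.53 IPM (19.04 to 45.89) and the day 10 animals 33.36 (20.98 to 44.56), against 6.549 (2.385 to 15.8) in Syn1Cre. Neither SP1 group overlapped Syn1Cre. The differences were 2.29 ± 0.40 (SE, edgeR adjusted p = 5.698e-08) and 2.53 ± 0.66 (SE, edgeR adjusted p = 0.0008727). The TTAA of the Gabra2 promoter shown above lies in this window.

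At the starts of Gabrb2 the levels were 40.01 (17.25 to 73.42) at day 28 and 55.21 (34.55 to 89.11) at day 10, against 11.95 (7.156 to 24.82). The differences were 1.46 ± 0.35 (SE, edgeR adjusted p = 0.0001784) and 2.31 ± 0.49 (SE, edgeR adjusted p = 2.2e-05). The day 28 animals overlapped Syn1Cre and the day 10 animals did not.

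At the start of Gabra4 the levels were 32.95 (19.04 to 51.74) at day 28 and 26.15 (10.49 to 34.55) at day 10, against 7.875 (5.465 to 11.28). The differences were 1.96 ± 0.38 (SE, edgeR adjusted p = 1.302e-06) and 1.78 ± 0.68 (SE, edgeR adjusted p = 0.0422). Only the day 10 animals overlapped Syn1Cre. Gabrg1 had 28.29 (20.78 to 34.5) at day 28 against 13.12 (11.2 to 15.8), with no overlap, a difference of 1.01 ± 0.36 (SE, edgeR adjusted p = 0.01548). Gabrb1 had 35.37 (9.177 to 64.68) against 17.81 (11.72 to 33.85), with overlap, a difference of 1.19 ± 0.32 (SE, edgeR adjusted p = 0.0009296). Gabrg3 was not called at day 28 (1.01), nor were Gabrg3 (1.49), Gabrg1 (1.18) and Gabrb1 (1.05) at day 10. Gabra5 had no insertion near its start in either SP1 group and 2 in Syn1Cre.

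On the windows that passed the filter, most of which were higher, TMM factors and DESeq2 re-centre the values on those windows alone. TMM factors moved the median of all start windows by -1.90 at day 28 and -2.30 at day 10, and DESeq2 by -1.74 and -2.22. Gabra2 was then 0.43 and 0.58 at day 28 and 0.23 and 0.27 at day 10. Gabrb1, Gabrb2 and Gabrg1 turned to -0.64, -0.44 and -0.86 with TMM factors at day 28, and Gabrb1 and Gabrg1 to -1.25 and -1.13 at day 10. The directions given above hold for IPM of the whole genome.

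As a share of each gene's insertions, the starts of Gabra2 held 2.433% in Syn1Cre (31 of 1274), 17.24% at day 28 (30 of 174) and 40.91% at day 10 (9 of 22). The starts of Gabrb2 held 3.878%, 20.38% and 38.46%, of Gabra4 6.288%, 27.68% and 29.17%, and of Gabrg3 2.241%, 8.543% and 15.38%. Gabrg1 had the highest share at its start in Syn1Cre, 28.02%, and reached 52.83% and 57.14%. Gabrb1 went from 2.191% to 6.173% and 9.574%.

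**Figure D5:**
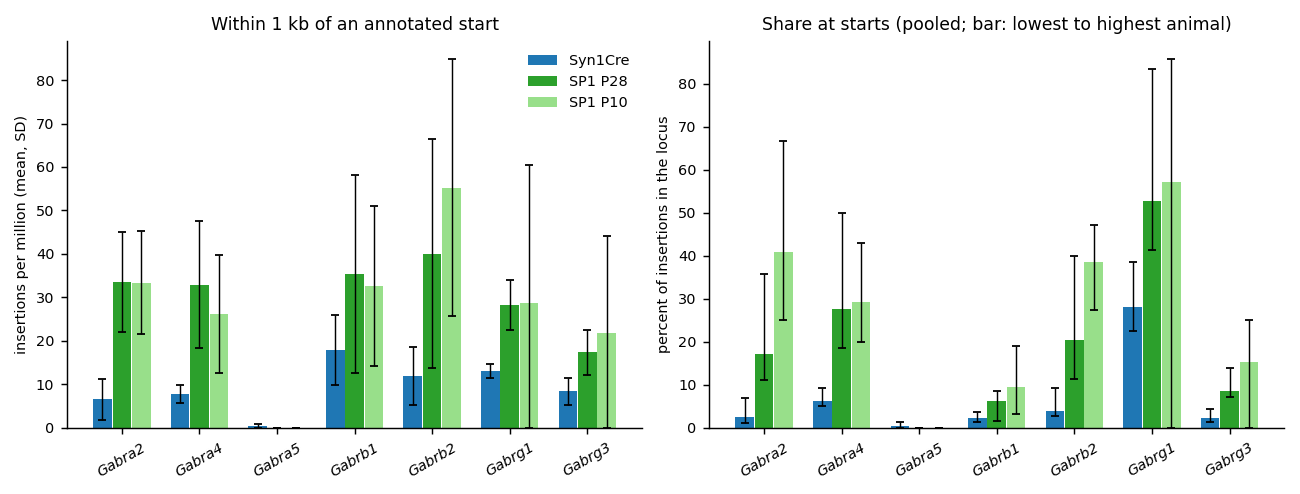
Left, IPM within 1 kb of the annotated starts of each of the 7 genes in Syn1Cre and in the SP1 animals of day 28 and day 10, as mean with SD bars cut at 0. Right, the share of each gene's insertions that lay there, pooled over animals, with error bars from the lowest to the highest animal. Both are higher in the SP1 groups than in Syn1Cre at 6 genes, and Gabra5 is at or near 0.

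With the start windows left out, 4 genes were lower at day 28, where 14% of 9689 loci were lower, and 5 at day 10, where 11.4% of 10617 were lower. These were Gabra2 (-0.79 and -2.18), Gabra4 (-0.71 and -1.01), Gabrb2 (-1.25 and -1.60) and Gabrg3 (-1.03 and -1.46) at both ages and Gabrb1 at day 10 (-1.20). Gabra5 (-0.48 and -0.70) and Gabrg1 (-0.53 and -0.56) were not called. The start windows and this subtraction were added after the data were seen.

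In 50 kb windows the lower levels of the day 28 animals reached across the clusters. Of 52 windows tested in the 3 clusters, 25 were called and all were lower, where 22% of 20635 windows genome-wide were lower and 41.1% were called in all. They were 9 of 22 on chromosome 5, 6 of 16 on chromosome 7 and 10 of 14 on chromosome 11, with median differences of -0.75, -0.72 and -1.29 against -0.19 genome-wide. The window chr11:42500001-42550000 in Gabrb2 fell by 1.32 ± 0.24 (edgeR adjusted p = 7.866e-05).

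Cell type markers moved in both directions in the SP1 comparisons. Of 12 neuron markers, 3 were higher and 4 lower at day 28 and 3 higher and 5 lower at day 10, with summed levels of 2313 to 2617 and 2016 to 2360 against 3673 to 4346 in Syn1Cre. Of 10 astrocyte markers, 6 were higher at day 28 (1040 to 2229 against 639 to 2026) and 1 at day 10 (891.6 to 1170). Over all loci, 5023 of 12053 were higher and 1227 lower at day 28. At day 10, 3648 of 12787 were higher and 1143 lower. No marker was at 0 in these groups. Their part in the results on the 7 genes was not tested.

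The animals that need no Cre were set against both lines. Between C57bl6J and Syn1Cre 0 of 7 were called by edgeR or DESeq2, where 0.374% of 14445 loci were by edgeR, and 0 had an unadjusted p under 0.05. Their differences ran from -0.13 to 0.38, against a median of all loci of -0.16 that TMM factors and DESeq2 moved by 0.14. Between C57bl6J and GFAPCre Gabrb1 alone was lower, where 15.1% of 13256 loci were called. C57bl6J had 653.3 and 729.4 and GFAPCre 777.1 to 943.6, with no overlap, and the difference was -0.34 ± 0.11 (SE, edgeR adjusted p = 0.03421). It was not called with TMM factors (-0.24) or DESeq2 (-0.25), nor without C57bl6J animal 1 (-0.26) or 2 (-0.42) or GFAPCre animal 1 (-0.32) or 4 (-0.31). The split of all loci turned from 672 higher and 1330 lower to 929 and 728 with TMM factors and 358 and 317 with DESeq2. Of 10 astrocyte markers 8 were lower in C57bl6J (505.2 to 540.1 against 822.4 to 1694 IPM), and their part was not tested.

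BrokenHeart, read from DNA, was set against C57bl6J, read from RNA. Of 6 genes tested 1 was called, where 39.7% of 1879 loci were. Gabra2 had 120.1, 152.8 and 23.52 IPM in BrokenHeart (23 insertions in all) and 214.8 and 208.1 in C57bl6J, with no overlap. It was lower by -0.87 ± 0.30 (SE, edgeR adjusted p = 0.0168), and not called without BrokenHeart animal 1 (-0.90) or 3 (-0.59) or either C57bl6J animal (-0.87 and -0.92). Gabrb1 had 480.5, 641.6 and 517.5 against 653.3 and 729.4 and was not called (-0.29 ± 0.16, SE). Gabrb2 (256.1 ± 40.71 in BrokenHeart; SD, n = 3) and Gabrg3 (375.4 ± 88.53; SD, n = 3) differed from C57bl6J by 0.03 and 0.06. Gabrg1 had 9 insertions and was not tested.

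In the Rbp4Cre_TRAP animals Gabra2 had the most negative difference of the 7 genes from both Cre lines. It had 52.62, 198.6, 124.8 and 40.97 IPM there, from 19 insertions, against 216.5 to 273 in GFAPCre and 166.1 to 264.5 in Syn1Cre. It lay below every GFAPCre animal. Against GFAPCre it was lower by -1.17 ± 0.30 (SE, edgeR adjusted p = 0.008629), the only 1 of 7 called where 4.19% of 10391 loci were, and it was not called without Rbp4Cre_TRAP animal 1 (-0.85) or 4 (-1.03). Against Syn1Cre 0 of 7 were called, where 1.21% of 10693 loci were, 1 had an unadjusted p under 0.05, and Gabra2 differed by -1.02 ± 0.32 (SE, edgeR adjusted p = 0.1014). There it was called with TMM factors (-1.27), with DESeq2 (-1.15), without Rbp4Cre_TRAP animal 2 (-1.59) and without Syn1Cre animal 5 (-1.02). TMM factors moved the median of all loci by -0.23 and -0.24 in these comparisons and turned the split of called loci from 169 higher and 266 lower to 77 and 544 against GFAPCre, and from 55 and 74 to 21 and 205 against Syn1Cre. Of the astrocyte markers 5 of 9 tested were lower than in GFAPCre (218.5 to 655.5 against 822.4 to 1694 IPM), and the astrocyte marker Aldoc and the neuron markers Gad1 and Slc32a1 were at 0. Their part was not tested.

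Between Frontflip_GFAPCre and GFAPCre 0 of 7 were called by edgeR or DESeq2, where 1.51% of 10526 loci were, although 3 had an unadjusted p under 0.05. Gabrb1 had 880.5, 1083 and 1034 in Frontflip_GFAPCre. Gabrb2 had 248.1, 199.2 and 269.2. The lowest adjusted p among the 7 was 0.1818. Between Syn1CreNeg and GFAPCreNeg 0 of 7 were called by edgeR or DESeq2, where 0.0284% of 7040 loci were, and 2 had an unadjusted p under 0.05. Gabra5 differed by -0.65 ± 0.18 there (SE, edgeR adjusted p = 0.1065) and was called without GFAPCreNeg animal 6 (-0.71).

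Within the genes the insertions were unevenly spread. Each body was cut into a first, a middle and a last part of equal length. They were counted from the upstream end of the body on the gene's strand, not from annotated starts. Over all 43 brain RNA tables, the first part held 78.98% of body insertions at Gabrg1, 58.21% at Gabra2 and 41.95% at Gabrb1. It held 38.36% at Gabra4, 36.22% at Gabrg3 and 31.93% at Gabra5. At Gabra5 the annotated start used above, 57510059, lies in the middle part, so its first part is not the part nearest that start. In Gabrb2 the first part held 21.30% and the middle part 46.59%. The share of insertions on the plus strand was even over all 20926099 insertions, 67.53% at Gabrb2, 62.06% at Gabra5 and 61.32% at Gabrb1. It was 49.73% at Gabrg1, 45.07% at Gabrg3, 38.52% at Gabra2 and 37% at Gabra4. For Gabrb1, Gabrb2, Gabra2, Gabra4 and Gabrg3 the majority strand was thus the strand of the gene, and for Gabra5 the opposite one. These shares are descriptions, since insertions at 1 TTAA in several animals are not independent draws.

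The same positions were hit again in different animals. Between 86.88% (Gabrg1) and 96.58% (Gabrb1) of a locus's insertions lay at positions hit in 2 or more animals. The most frequent position of Gabrb2 was the promoter TTAA at 42421192 shown above, with 178 insertions in 37 animals. At Gabrb1 the positions 71732639 (176 insertions in 35 animals, inside the dense 10 kb) and 72094173 (174 in 34) led. Gabra5 had 133 insertions at 57597929 in 32 animals, Gabra2 106 at 71096423 in 31 animals, 0.574 kb from its start, Gabra4 104 at 71602727 in 28, Gabrg3 73 at 57387803 in 28 and Gabrg1 70 at 70843579 in 25.

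Gene loci with the most similar profile over 8 group means of log2 level were named by correlation among 9428 loci with at least 20 IPM. They were Vps13a for Gabra2 (Pearson r = 0.994), Pgr for Gabra4 (0.987), Bbs9 for Gabra5 (0.972), Gpm6a for Gabrb1 (0.991), Nrxn3 for Gabrb2 (0.993), Gbe1 for Gabrg1 (0.922) and Hs6st3 for Gabrg3 (0.998). With 8 points that share libraries and depth, and the best of 9428 chosen, these are descriptions.

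Other genes of GABA signalling were counted beside them. Among the 12 other GABA-A subunit genes, 0 of 7 tested changed between Syn1Cre and GFAPCre. In GFAPCre against GFAPCreNeg 0 of 4 changed. In the SP1 animals Gabra3, an alpha subunit gene, fell at day 28 (-0.93). Gabrd, the delta subunit gene of extrasynaptic receptors and a short gene, rose (42.81 against 13.44 IPM at day 28, 1.74 ± 0.28, SE, edgeR adjusted p = 4.941e-06; 2.30 at day 10). Rises were common in these comparisons, at 5023 of 12053 loci at day 28 and 3648 of 12787 at day 10.

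Of the 2 GABA-B receptor genes, Gabbr1 rose (1.76 and 1.90) and Gabbr2 fell (-0.47 and -0.88) in the SP1 animals. Gabbr1 fell in Syn1Cre against Syn1CreNeg (-0.62). Of 15 scaffold and trafficking genes in the gene table, 14 were tested in the SP1 comparisons. At day 28, 3 rose and 1 fell, and at day 10, 2 rose and 2 fell. Over all loci, 5023 of 12053 rose at day 28 and 3648 of 12787 at day 10. Nlgn2, which encodes an adhesion protein of inhibitory synapses, had 165.1 IPM at day 28 against 8.655 (4.18 ± 0.24, SE, edgeR adjusted p = 3.282e-14). Gabarap, a trafficking protein named for the receptor, rose by 3.11 and 3.72, and Plcl1 fell by 0.76 and 0.66 on the log2 scale. The low-count filter at day 28 needs 15.03 IPM in 4 animals. Syn1Cre means of 8.655 at Nlgn2 and 7.556 at Gabarap are too low for 4 of the 6 Syn1Cre animals to reach it. At day 28 both genes thus passed through the SP1 animals, where they are high, and their values are a description. Gphn, the gephyrin gene whose protein anchors the receptors, fell in Syn1Cre against GFAPCre (-0.39 ± 0.10, SE, edgeR adjusted p = 0.03518) and against Syn1CreNeg (-0.68), and at day 10 in the SP1 animals (-1.04). Gphn was also lower in C57bl6J against GFAPCre (-0.54), in BrokenHeart against C57bl6J (-0.89) and in Rbp4Cre_TRAP against GFAPCre (-0.86).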

How the data were processed

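Insertions were read from cortex RNA, forebrain TRAP RNA, cortex DNA and N2a RNA, 194 samples combined by the authors into 47 tables. Per the labels' protocols each cortex was cut into 10 pieces indexed apart, which separates up to 10 insertions at 1 TTAA. Each table lists 1 insertion per line with its read count, deposited by the authors as raw counts. The submitters' processing notes name mm10, Novoalign and Bowtie2 with no role or version. BrokenHeart positions were shifted by 1 base, since 78.03 to 79.36% of its insertions then fell on a position read from RNA.

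Insertions, each counted once whatever its reads, were summed over the 21631 protein-coding loci of RefSeq's GRCm38.p6 table and divided by all insertions of the table. Labels number the replicates without stating that each is a separate animal; each was taken as 1 animal, and p-values measure the spread between them. The test was edgeR 4.0.16 quasi-likelihood (R 4.3.3), with total insertions as library size, filterByExpr and Benjamini-Hochberg adjustment over all loci, 50 kb windows or start windows. In simulated data 3-fold changes were recovered at 23.5% (Rbp4Cre_TRAP against GFAPCre) to 87% (Syn1Cre against GFAPCre) of 200 loci. The simulated spread between animals was 1 fixed setting for every locus and was not taken from these data. These rates are thus not the power of the tests reported here. DESeq2 1.42.0, TMM factors, filters, distinct positions, gene bodies alone, left-out animals and blocks were tried as alternatives. Depth sets precision: intervals and the floor of 3 counts cover counting error only. The members and lists, and the rule for the genes named (all members, called pathway genes, and the closest loci by profile), were chosen with earlier results of these data known. The other lists (oligodendrocyte, microglia and endothelial markers) are given in the closing section. Frontflip_GFAPCreNeg, at 17607 insertions, entered no comparison. Results on some other loci are not reported here.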

Additional observations from a re-analysis of the deposited data

Results flagged for a closer look

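In 42 sets of 1 gene and 1 group with 4 to 10 animals, the highest or lowest animal was checked for a gap to its neighbour that was large for the group's range (Dixon's 95% criterion), which chance meets in about 1 set in 20. It was met in 6 sets. At Gabra2, Syn1CreNeg animal 3 had 117.6 insertions per 1000000 (IPM) (14 insertions), with the next animal at 210.6. At Gabra4, GFAPCreNeg animal 6 had 100.9 (21 insertions) and the next 140.3. At Gabra5, Rbp4Cre_TRAP animal 3 had 224.6, from 9 insertions, and the next 87.7. At Gabrb1, GFAPCreNeg animal 6 had 1288 (268 insertions) and the next 1159, and Rbp4Cre_TRAP animal 4 had 860.4 (21 insertions) and the next 666.5. At Gabrg1, Syn1CreNeg animal 1 had 9.304, which is 1 insertion, and the next 58.79. GFAPCreNeg animal 6 was thus low at Gabra4 and high at its neighbour Gabrb1.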

How the results depend on the processing

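Of the single-gene fold changes under the alternatives, 797 kept their direction and side of the threshold, 43 lost the call, 33 gained it and 10 reversed. At start windows 90 kept both, 7 lost the call, 4 gained it and 14 reversed. The number of the 7 genes called moved as follows. Percentages in brackets are the share of all loci or windows called in the same fit. With Syn1Cre animals 1 to 3 only it was 2 against GFAPCre (14.7%), where it was 0 with all. Against Syn1CreNeg, where it was 2, it was 1 with DESeq2 (25.6%), from at least 2 reads (29.3%) and within animals 1 to 3 (11.9%). For GFAPCre against GFAPCreNeg it was 0 with the pool as a block (0.434%). Between the SP1 ages it was 1, Gabrb1, with DESeq2 (4.83%), no low-count filter (1.24%), distinct positions (8.9%), at least 2 reads (10%) or gene bodies alone (14.4%). For C57bl6J against GFAPCre it was 0 with TMM factors (12.5%) or DESeq2 (5.09%) and 2 from at least 2 reads (11.2%) or gene bodies alone (19.7%). For BrokenHeart against C57bl6J it was 0 with no filter (4.93%). For Rbp4Cre_TRAP it was 1 with TMM factors (2.11%) or DESeq2 (1.74%) against Syn1Cre, and 4, 3 and 2 with TMM factors (5.98%), DESeq2 (4.26%) and distinct positions (8.17%) against GFAPCre. At start windows past the filter it was 2, both lower, with TMM factors (64.8%) and 0 with DESeq2 (54.7%) at day 28. At day 10 it was 2 with TMM factors (59.8%), Gabrb1 and Gabrg1 (both lower) in place of Gabra2 and Gabrb2, and 0 with DESeq2 (49.8%). Cluster windows called were, from at least 2 reads, 1 for Syn1Cre against GFAPCre (2.82%) and 15 in place of 25 (40.7%) for day 28 SP1 against Syn1Cre.

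Replicate numbers are shared between groups, and the correlations of same-numbered animals ran from -0.301 to 0.203 between Syn1Cre and GFAPCre, -0.0061 to 0.164 in the Syn1 line and -0.242 to 0.159 in the GFAP line. Not every pair was over 0.1 in any of these, so the numbers were not taken as pairs. In them 1, 3 and 1 of 6 animals correlated best with their own number, and the 3 of the Syn1 line (0.164, 0.116 and 0.125) are a hint from the data that some numbers may be shared. With a replicate block 1 gene was called between the SP1 ages (15.2%), 1 (Gabrg1) between C57bl6J and Syn1Cre (13.3%), 3 between C57bl6J and GFAPCre (11.7%) and 0 between BrokenHeart and C57bl6J (27.3%), and in the Syn1 line it was 2 as before (27.5%).

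Leaving out 1 animal gave 0 to 1 genes called for Syn1Cre against GFAPCre (1.31 to 6.94% of all loci), 1 to 3 against Syn1CreNeg (21.7 to 35.2%), 1 to 1 for GFAPCre against GFAPCreNeg (4.47 to 11.7%), 2 to 4 at day 28 (43.6 to 54%) and 4 to 4 at day 10 (27.8 to 40.1%) against Syn1Cre, and 0 to 2 between the ages (0.182 to 18%). It gave 0 to 2 for C57bl6J against GFAPCre (3.71 to 18.7%), 0 to 1 for BrokenHeart (5.6 to 16.7%), 0 to 1 for Rbp4Cre_TRAP against Syn1Cre (0.506 to 1.84%) and GFAPCre (1.83 to 5.18%), and 0 to 1 for Syn1CreNeg against GFAPCreNeg (0.0138 to 4.61%). It gave 0 to 0 for C57bl6J against Syn1Cre (0.0139 to 2.7%), Frontflip_GFAPCre (0.15 to 3.93%) and the interaction (0.428 to 3.86%). Filtered start windows gave 5 to 6 at day 28 (79.3 to 88%) and 2 to 4 at day 10 (62.8 to 79.4%). Cluster windows gave 0 to 1 (1.71 to 8.53%), 7 to 14 (23.1 to 38%; 14 without Syn1Cre animal 5), 2 to 3 (3.5 to 10.3%) and 20 to 28 (28.7 to 44.3%) in the 4 comparisons made.

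Reversed fold changes lay among the SP1 comparisons. At day 28 Gabrb1 was 0.04 with distinct positions, and Gabrg1 was -0.37 (TMM), -0.41 (DESeq2) and -0.53 (without start windows). At day 10 Gabrg1 was -0.36 (TMM), -0.39 (DESeq2), -0.00 (gene body), -0.07 and -0.20 (without day 10 animal 1 or 3; 0.65 without animal 2) and -0.56 (without start windows). At start windows, TMM factors and DESeq2 gave -0.64 and -0.59 for Gabrb1, -0.44 and -0.25 for Gabrb2 and -0.86 and -0.73 for Gabrg1 at day 28. At day 10 they gave -1.25 and -1.24 for Gabrb1, -1.13 and -1.07 for Gabrg1 and -0.80 and -0.77 for Gabrg3, and TMM factors gave -0.00 for Gabrb2. Gabrg1 there was -0.19 without day 10 animal 3 and 1.75 without animal 2. Other splits moved by scaling were 68.5% of called loci higher for C57bl6J against Syn1Cre (97.4% TMM, 97% DESeq2), 75.5% for Frontflip_GFAPCre (85.9% and 89.3%), 100% of 2 called loci for Syn1CreNeg against GFAPCreNeg (66.7% of 3 and 8.33% of 12), 57.8% for the interaction (65.8% and 75.4%), 51.9% of windows for Syn1Cre against Syn1CreNeg (43.7% and 39.9%) and 24.4% for GFAPCre against GFAPCreNeg (13.5% and 8.67%). The cause of these moves was not tested. Depth limits the Rbp4Cre_TRAP, BrokenHeart and day 10 SP1 values most, where several genes rest on under 25 insertions.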

Other observations

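Markers of other cell types were counted beside the 7 genes. Over all loci, 14.6% were higher and 16.6% lower in Syn1Cre against Syn1CreNeg. In GFAPCre against GFAPCreNeg 182 of 9203 loci were higher and 584 lower, and 2.41% were called between Syn1Cre and GFAPCre. In the SP1 animals 5023 of 12053 loci were higher at day 28 and 3648 of 12787 at day 10. Of 7 oligodendrocyte marker loci, 2 of 4 tested fell in Syn1Cre against Syn1CreNeg (208.6 to 264 against 252 to 346.3 IPM in all), 1 rose and 1 fell of 4 tested in GFAPCre against GFAPCreNeg, and 0 of 5 were called between Syn1Cre and GFAPCre. Of 5 microglia marker loci, 1 of 2 tested fell in Syn1Cre against Syn1CreNeg (68.87 to 83.49 against 78.62 to 153.8), and 1 of 2 rose in the SP1 animals at each age (122.9 to 165.2 at day 28 and 138.2 to 241.3 at day 10). Of 4 endothelial marker loci, the 1 tested rose in Syn1Cre against Syn1CreNeg (40.62 to 87.68 against 23.93 to 41.02). Their part in the results on the 7 genes was not tested.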
